A study of Mus musculus with 8 samples.

Results

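MiR-210 is a microRNA (miRNA), a short RNA that lowers the output of messenger RNAs carrying a match to its seed, bases 2 to 8 of the mature strand. Its hairpin precursor yields 2 mature strands, miR-210-3p and miR-210-5p. Both were taken by their names among the non-control probes of the array, and they are 2 of 1881 mouse miRNAs and 4 of 4415 probes measured. They were followed in whole kidneys of 4 Akita mice (strain C57BL/6-Ins2Akita/J) and 4 control mice (strain C57BL/6J, titled Mock). All samples were labelled male with an age of 36, for which no unit is given, and whether Mock stands for a mock treatment is not given either. The labels name no treatment. The Akita allele is a mutation of the insulin gene Ins2 that misfolds proinsulin in pancreatic beta cells. It leaves the mice short of insulin and diabetic. How the allele acts on these kidneys was not tested. Whether every sample is a separate mouse is not labelled, and p-values here measure only the spread between these samples, which may be technical.

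MiR-210 is the miRNA most regularly induced when oxygen is short. The hypoxia-inducible factors HIF-1 and HIF-2 are stable at low oxygen, and HIF-1 switches on transcription of miR-210, whose 3p strand is the one usually loaded into the silencing complex. Among its known targets are messenger RNAs for iron-sulfur cluster assembly proteins, through which it lowers mitochondrial respiration, and for the ligand ephrin-A3. Parts of the kidney normally work at low oxygen, and tubules exposed to much glucose spend more oxygen on its reabsorption.

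The sequences below define what each probe could see. The precursor is shown first, from RefSeq on GRCm38.p6 (chromosome 7, minus strand, 110 bases, 5′ to 3′), with its 5p and 3p strands in capitals at bases 28 to 49 and 66 to 87.
Mir210: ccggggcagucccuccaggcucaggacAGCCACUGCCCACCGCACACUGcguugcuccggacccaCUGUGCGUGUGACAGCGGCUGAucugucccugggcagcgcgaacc
The mature strands, both 22 bases and from the same RefSeq table, have the seed in capitals.
mmu-miR-210-3p: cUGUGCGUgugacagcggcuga
mmu-miR-210-5p: aGCCACUGcccaccgcacacug
The 4 array probes are DNA complementary to the 3′ part of each strand, and capitals mark the probe bases that pair with the seed.
A_54_P1443 for miR-210-3p: tcagccgctgtcacAC
A_54_P1444 for miR-210-3p: tcagccgctgtcacA
A_54_P00005067 for miR-210-5p: cagtgtgcggtgg
A_54_P00005066 for miR-210-5p: cagtgtgcggtg

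The predicted fold of the precursor had a minimum free energy of -48.0 kcal/mol, with 17 of the 22 bases of the 3p strand paired and 16 of them to the 5p strand. The strands are separated by a loop region of 16 bases. GC content was 63.6% in miR-210-3p and 68.2% in miR-210-5p. Among the 1679 mature mouse miRNA names in the RefSeq table, 0 others carried the seed of either strand. Of the 1881 miRNAs on the array 1608 were found there by name, and the seeds of the remaining ones were not compared. In the GRCm38.p6 gene table Mir210 overlapped no other gene and stood between Rassf7 and Gm51460, both protein-coding.

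The probes cover the 3′ end and little of the seed. The miR-210-3p probes pair with bases 7 to 22 and 8 to 22, and thus reach 2 and 1 bases of the seed, while the miR-210-5p probes pair with bases 10 to 22 and 11 to 22 and reach none. Their annotated mm9 positions are chr7:148407355-148407369 and chr7:148407356-148407369 for the 16-base and 15-base probes of miR-210-3p, and chr7:148407320-148407331 and chr7:148407321-148407331 for the 13-base and 12-base probes of miR-210-5p. That annotation puts the 3p probes at higher coordinates than the 5p probes, the order of a plus-strand gene, although RefSeq places Mir210 on the minus strand; no mm9 genome was used here to settle it. The longest exact match of the miR-210-3p probes to any of 1607 other array miRNAs of known sequence was 9 bases, to miR-7672-5p, which was too dim to be tested.

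Each probe was printed 15 times per array, so each strand was read from 240 spots. Of the 234 miR-210-3p spots kept after removal of outliers, 223 (95.3%) were flagged well above background. Of the 236 miR-210-5p spots kept, 0 were. The 3p strand was therefore above background on all 8 arrays, as were 257 miRNAs in all, and the 5p strand was above background on 0 of 8.

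MiR-210-5p was not well above background in either group, and only miR-210-3p could be compared between Akita and control kidneys. The 13-base miR-210-5p probe averaged 1.48, 0.91, -0.41 and -1.65 intensity units over its spots on Akita arrays 1 to 4 after background subtraction, against 2.86, 1.64, 2.47 and -0.997 on control arrays 1 to 4. The 12-base probe averaged -2.40, -1.35, -0.91 and -1.53 on the Akita arrays, against -0.68, -0.70, -0.45 and -2.15 on the control arrays. For scale, negative-control spots averaged 0.26 to 2.83 units on the Akita arrays and 0.92 to 1.5 on the control arrays, with SDs between spots of 3.14 to 3.69. The means of the 13-base probe thus lay on either side of 0. Those of the 12-base probe lay below 0, and below the negative-control means, on all 8 arrays. Below 0 lay 44 of 59 Akita spots and 38 of 59 control spots of the 12-base probe, and 29 of 58 Akita spots and 25 of 60 control spots of the 13-base probe. In the authors' deposited table miR-210-5p had exactly the value of the entry named Blank in all 8 columns, as did 1448 of 1902 entries, so the table holds no measurement of it. No fold change was computed for this strand, and the arrays' number and signal over background limit what could be seen.

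**Figure D1:**
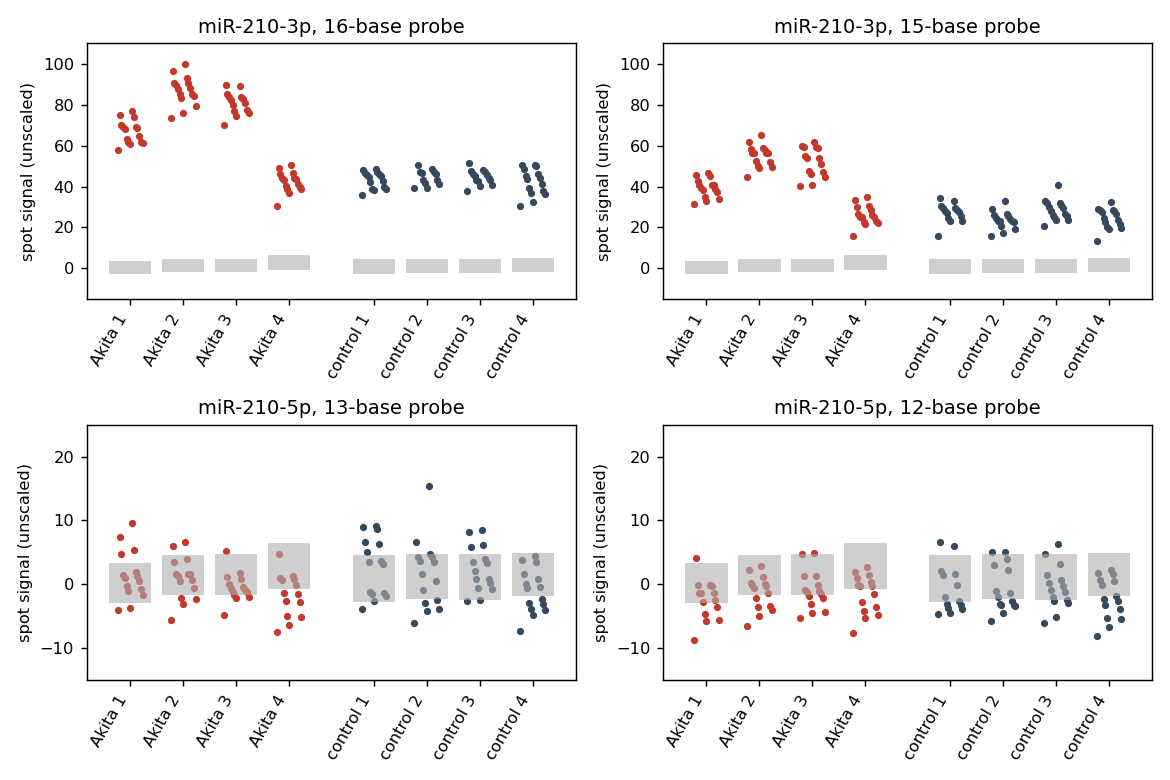
Background-subtracted intensity of single spots for the 4 probes, with Akita arrays left of control arrays. Each point is 1 spot; the spots of both miR-210-3p probes lie above 0 on all 8 arrays, whereas those of both miR-210-5p probes scatter around 0 on Akita and control arrays.

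MiR-210-3p was higher in Akita kidneys. On the linear scale, the sum of its 2 probes, after each array was divided by its own 75th percentile, was 109.7, 150.4, 141.5 and 85.5 units in Akita kidneys 1 to 4, against 65.5, 62.4, 66.3 and 59.1 units in control kidneys 1 to 4. Every Akita value lay above every control value, Akita 2 and 3 being highest and Akita 4 nearest the controls. As log2 signal the values were 6.78, 7.23, 7.14 and 6.42 in Akita kidneys and 6.03, 5.96, 6.05 and 5.88 in control kidneys, with means of 6.89 ± 0.37 and 5.98 ± 0.08 (SD, n = 4 each). The fold change was 1.88 (log2 fold change 0.91 ± 0.16 SE, 95% confidence interval 0.54 to 1.28, limma adjusted p = 0.0072). In fold terms that interval ran from 1.45 to 2.43. An exact two-sided permutation test of the same values gave p = 0.0286, the smallest that the 70 splits of 4 against 4 arrays allow. Any miRNA without overlap between the groups reaches that p, so it adds nothing to the lack of overlap. In whole kidney, more cells of a type and more RNA per cell cannot be told apart.

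**Figure D2:**
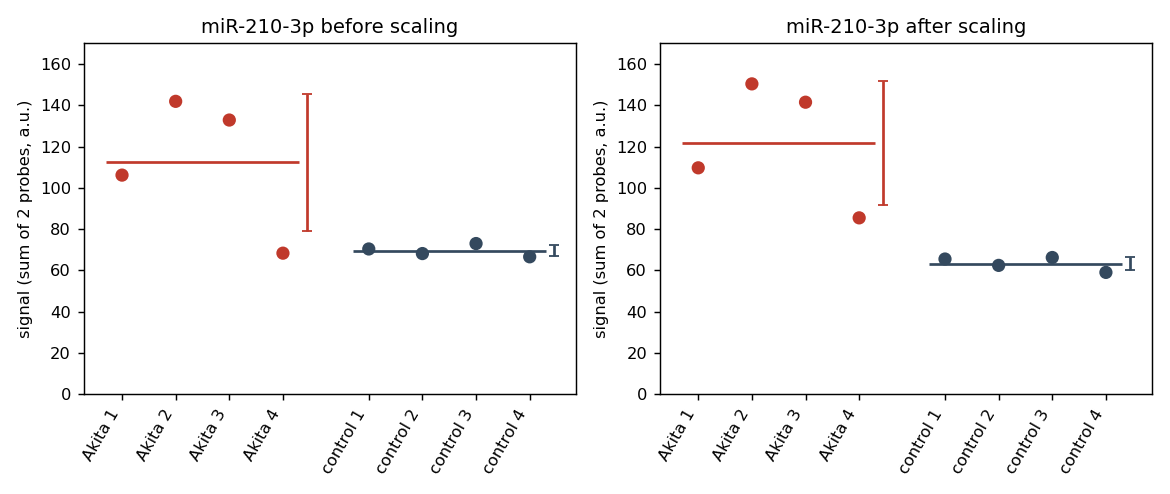
MiR-210-3p on each array, as the sum of its 2 probes before and after scaling by the array's 75th percentile (arbitrary units), Akita left of control, with horizontal lines at the means and bars of ± SD (n = 4 each). After scaling all Akita arrays (85.5 to 150.4 units) stand above all control arrays (59.1 to 66.3 units); before scaling Akita 4, at 68.4 units, stands among the controls.

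The separation between groups was narrow at its closest point. The lowest Akita value exceeded the highest control value by 0.37 on the log2 scale (1.29-fold), which is less than the range of 0.82 among the Akita kidneys and more than the range of 0.17 among the controls. Among all 285 miRNAs tested, 42 were called at an adjusted p under 0.05 (14.7%), of which 24 were higher in Akita kidneys (8.42%) and 18 lower (6.32%). The groups did not overlap for 65 of the 285 (22.8%), with the Akita arrays above the controls for 39 (13.7%), so lack of overlap alone was not rare. By size of log2 fold change miR-210-3p ranked 3 of 285 from the highest, and by p-value 13. All tested miRNAs together had a median of 0.06 on this scale, and miR-210-3p stood 0.85 above it. Among the 130 tested miRNAs whose mean log2 signal was within 1 of its own, itself included, 21 were called, 14 of them higher in Akita kidneys, and 1, miR-210-3p itself, had a log2 fold change that large.

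Akita kidneys differed from each other in miR-210-3p more than control kidneys did. The SD of log2 signal was 0.37 among Akita kidneys and 0.08 among controls, a ratio of 4.92, and this difference in spread was not tested. Of the 257 miRNAs above background on all arrays, 19 had a larger SD among the Akita kidneys, where the median SD was 0.14. Among the controls 177 had a larger SD, with a median of 0.10.

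Part of the distance between groups belonged to the scaling of the arrays. Before scaling, the sum of the 2 probes was 106.2, 141.9, 132.9 and 68.4 units in Akita kidneys, against 70.4, 68.2, 73.0 and 66.6 units in control kidneys. Akita 4 then lay within the range of the controls, and the other Akita arrays lay well above it. Akita 4 was also the dimmest array, with a 75th percentile of 368.8 units, against 432.9 to 446.2 on the other Akita arrays and 495.4 to 520.0 on the control arrays, and it had the fewest miRNAs above background (274, against 292 to 298 on the other Akita arrays and 295 to 327 on the control arrays). Without scaling the log2 fold change was 0.64 (limma adjusted p = 0.036), and with scaling by labelling spike-ins it was 0.67 (adjusted p = 0.040). The groups overlapped under both. Quantile normalization gave 0.81, cyclic loess 0.82, median scaling 0.91 and the percentile over all probes 1.00, with miR-210-3p called under all 4. Background correction by normexp with an offset of 50, which compresses dim signals, gave 0.51 (adjusted p = 0.00020). The call was lost in 2 of 28 alternatives, with a floor 4 times higher (0.37, adjusted p = 0.34) and with all 1881 miRNAs tested (0.91, adjusted p = 0.25). In the authors' deposited table, where each value is relative to the miRNA's median over the arrays, miR-210-3p stood at 1.43, 2.04, 1.96 and 1.08 in Akita kidneys and at 0.87, 0.84, 0.92 and 0.80 in control kidneys, without overlap. The entry named Blank did not overlap in that table either. It stood at 1.03, 1.11, 1.13 and 1.22 on Akita arrays 1 to 4 and at 0.95, 0.95, 0.97 and 0.70 on control arrays 1 to 4. Lack of overlap in that table therefore does not by itself show a difference in miR-210-3p. The Akita arrays lay in row 2 and the control arrays in row 1 of a single slide, and the effect of the row on a difference between groups cannot be told apart from that of the genotype.

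**Figure D3:**
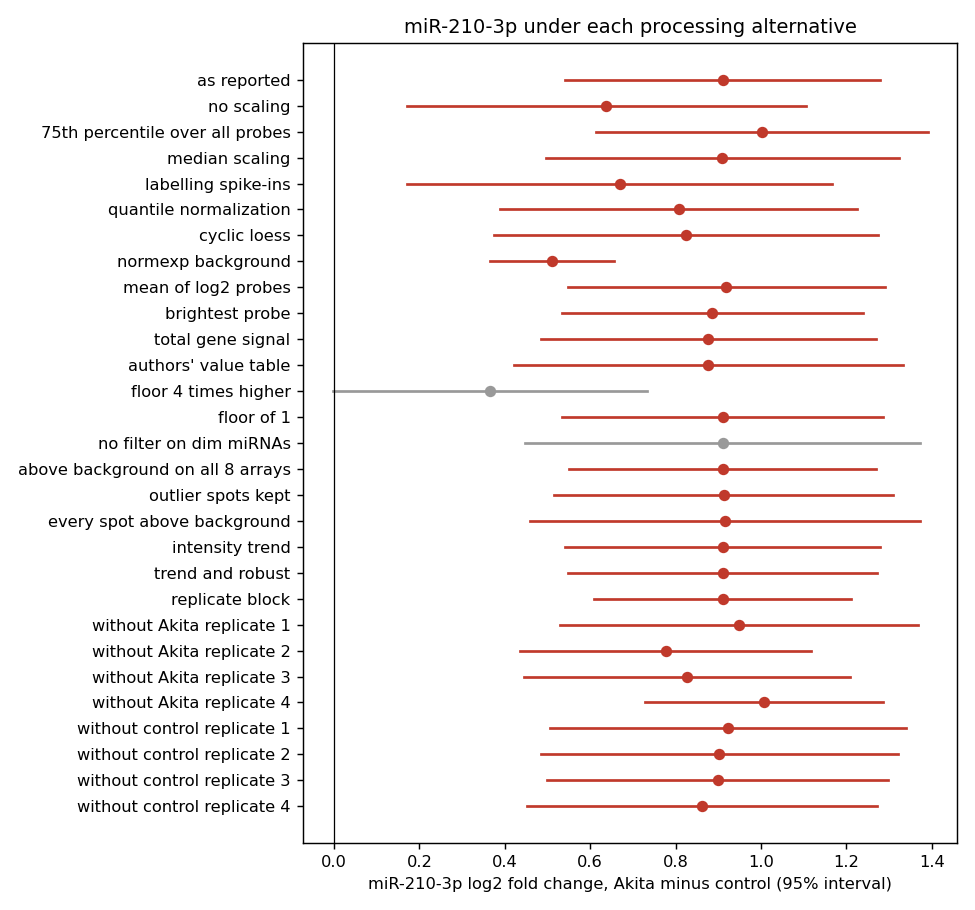
Log2 fold change of miR-210-3p (Akita minus control) under the reported processing and 28 alternatives, with 95% confidence intervals. All values lie above 0, from 0.37 with a floor 4 times higher to 1.01 without Akita 4.

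No single array carried the call. With each array left out in turn, the log2 fold change stayed between 0.78 and 1.01 and the limma adjusted p between 0.0025 and 0.024, and miR-210-3p was called in 8 of 8 fits. The highest of these values came without Akita 4.

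Both miR-210-3p probes showed the difference. The 16-base probe A_54_P1443 gave 69.2, 92.0, 86.1 and 52.9 scaled units in Akita kidneys, against 40.2, 40.8, 40.4 and 37.4 in control kidneys. The 15-base probe A_54_P1444 gave 40.6, 58.3, 55.4 and 32.6 scaled units in Akita kidneys, against 25.3, 21.6, 25.9 and 21.6 in control kidneys. On either probe each Akita array was above each control array, and Akita 2 was highest and Akita 4 lowest of the Akita arrays, as for the sum. The log2 fold change was 0.89 ± 0.16 SE for A_54_P1443 (adjusted p = 0.0078) and 0.95 ± 0.18 SE for A_54_P1444 (adjusted p = 0.0096), that is 1.85-fold and 1.93-fold, in a limma fit of 511 single probes. Of these probes 55 were called (10.8%), 30 of them higher in Akita kidneys (5.87%). The 2 probes read overlapping bases of 1 RNA and are not independent measurements.

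The longer probe, with 1 more base pair to the miRNA, was the brighter, by a ratio of 1.62 ± 0.07 on the Akita arrays and 1.69 ± 0.15 on the control arrays (SD, n = 4 each). Well above background were 59 of 59 Akita spots and 56 of 56 control spots of A_54_P1443, and 59 of 60 Akita spots and 49 of 59 control spots of A_54_P1444. The coefficient of variation between spots of 1 probe on 1 array was 6.9% to 20.3%. On the log2 scale signals under the floor of 4.56 were set to it, and no miR-210-3p sum was that low.

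Of the other miRNAs reported to rise under hypoxia in cultured cells, some were called lower and, as processed here, 0 higher. The list has 16 members besides miR-210, all above background on all 8 arrays, of which 0 rose, 3 fell and 13 were not called. With 3 of 16 called, its share is near the 14.7% called in either direction among all tested miRNAs. Called lower alone, 3 of 16 is a larger share than the 6.32% of all tested miRNAs. Called higher were 0 of 16, against 8.42% of all tested miRNAs. Its median log2 fold change was -0.0029, with a range of -0.61 to 0.23, against 0.06 over all tested miRNAs. These counts change with scaling: without scaling and with spike-ins 12 of the 16 fell. With the percentile over all probes 0 were called, with quantile normalization 2 rose and 4 fell, and with cyclic loess 2 rose and 5 fell. The calls over all 285 tested miRNAs changed too, from 14 to 114 over 6 scalings. The 114 came with spike-ins and were nearly all lower, and the share without scaling was similar.

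The list's called members were miR-155-5p, miR-181b-5p and miR-181c-5p. MiR-155-5p, which is also abundant in activated leukocytes, had log2 signals of 5.52, 5.52, 5.52 and 5.46 in Akita kidneys and 6.17, 6.15, 6.15 and 6.00 in control kidneys, a log2 fold change of -0.61 ± 0.06 SE (limma adjusted p = 0.00067). That call was lost with normexp (-0.04, adjusted p = 0.56), when the percentile was taken over all probes (-0.52, adjusted p = 0.072) and with the floor 4 times higher, at which both groups lay. The leukocyte list moved with it: 4 of its 5 members fell (median log2 fold change -0.54), against 6.32% of all tested miRNAs, and its summed signal was 686.5 to 827.5 units on Akita arrays and 1005 to 1160 on control arrays. The part of leukocytes in the miR-155-5p difference was not tested. MiR-181c-5p stood at 5.29, 5.31, 5.30 and 5.54 in Akita kidneys and 5.85, 5.97, 5.81 and 5.80 in control kidneys (log2 fold change -0.50 ± 0.08 SE, limma adjusted p = 0.0052). For miR-181b-5p the log2 signals were 6.19, 5.84, 6.07 and 6.01 in Akita kidneys and 6.34, 6.50, 6.35 and 6.29 in control kidneys (log2 fold change -0.35 ± 0.09 SE, limma adjusted p = 0.034). In all 3 the Akita arrays lay wholly below the controls, opposite to miR-210-3p. The miR-181b-5p call was lost in 5 of the 8 fits that left out an array, with log2 fold changes of -0.30 without Akita 2, -0.36 without Akita 3, -0.36 without control 1, -0.30 without control 2 and -0.39 without control 3.

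The 3 brightest members that were not called were miR-21a-5p, miR-26a-5p and miR-23b-3p. MiR-21a-5p, which rises in many injured and fibrotic kidneys, had log2 signals of 13.14, 13.03, 13.09 and 13.28 in Akita kidneys and 12.92, 12.92, 12.85 and 12.93 in control kidneys, a log2 fold change of 0.23 with a limma adjusted p of 0.059. Its groups did not overlap although it missed the threshold. It was called higher in 9 of 28 alternatives, among them quantile normalization (0.21, adjusted p = 0.019), cyclic loess (0.19, adjusted p = 0.021), median scaling (0.23, adjusted p = 0.049) and normexp (0.20, adjusted p = 0.025). Its direction turned without scaling (-0.04) and with spike-ins (-0.0085). The log2 fold changes of miR-26a-5p and miR-23b-3p were -0.06 and -0.00029, with overlapping groups.

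MiRNAs reported to target the messenger RNA of Hif1a, the oxygen-regulated subunit of HIF-1, were read from a list of 9. Of these, 7 were tested, 0 rose and 1 fell, miR-155-5p, which with miR-429-3p stands in both lists. With 1 of 7 called, the share is near the 14.7% called in either direction among all tested miRNAs, of which 6.32% were called lower. MiR-18a-5p and miR-138-5p were below background on too many arrays. The median log2 fold change of the 7 was -0.17. The brightest of those not called were miR-22-3p (0.13), miR-429-3p (0.15) and miR-20a-5p (-0.17), and the directions of miR-22-3p and miR-429-3p turned without scaling and with spike-ins. MiR-429-3p was called higher with quantile normalization (0.22, adjusted p = 0.022) and with cyclic loess (0.14, adjusted p = 0.028). Without Akita 4 the list had 4 calls, miR-20a-5p among them at -0.26, and without control 4 it had 2.

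**Figure D4:**
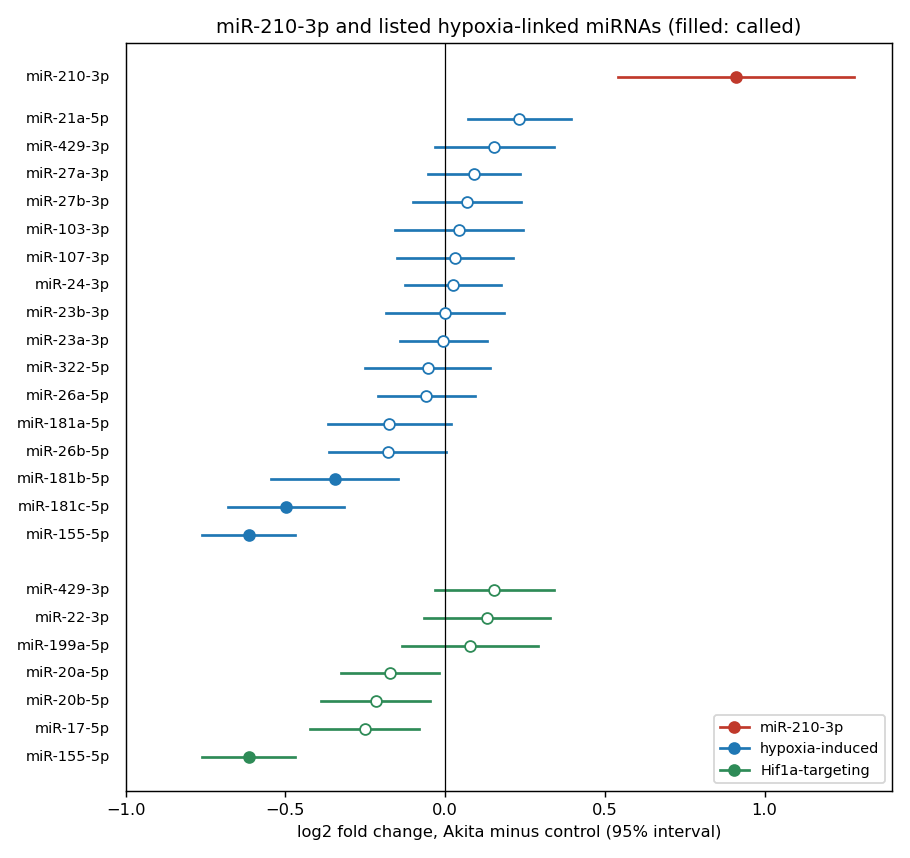
Log2 fold change (Akita minus control) of miR-210-3p, of the 16 other hypoxia-induced miRNAs and of the 7 tested miRNAs reported to target Hif1a, filled where called, with 95% confidence intervals. MiR-210-3p lies at 0.91, while the members of the lists lie between -0.61 and 0.23.

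The samples were checked for the RNA of other cells. All 8 kidney epithelial marker miRNAs were above background on all arrays and 0 of them were called, with a median log2 fold change of -0.05. Of all tested miRNAs 14.7% were called, so 0 calls in lists this short is not far from that share. The brightest of them, miR-30a-5p and miR-192-5p, had log2 fold changes of 0.16 and -0.0090. Of 4 erythroid markers on the array only miR-451a was tested, at 9.31, 9.24, 9.59 and 9.18 in Akita kidneys and 6.44, 8.60, 10.23 and 7.08 in control kidneys (log2 fold change 1.24 ± 0.69 SE, limma adjusted p = 0.24). By log2 fold change it ranked 2 of 285, just above miR-210-3p, though its groups overlapped. MiR-144-5p and miR-486a-5p were above background on no array. The summed erythroid signal was 629.6 to 844.4 units on Akita arrays and 96.5 to 1305 on control arrays. The part of blood RNA in the miR-210-3p difference was not tested. Both endothelial markers were tested and 0 called. Of 9 markers of other organs 6 were above background on no array. The others were miR-9-5p, above background on 8 arrays, miR-1a-3p, on 6, and miR-122-5p, on 5. Of these only miR-9-5p was tested, with a log2 fold change of -0.27 (limma adjusted p = 0.15).

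The tested miRNAs were also set in order of GC content and divided into 3 parts of near-equal size, with no test between them. Of the 285 tested miRNAs 248 could be matched to a sequence, and the part with the highest GC content (84 miRNAs, 57.1% to 100%), to which miR-210-3p belongs, had a median log2 fold change of 0.17 with 10 called higher and 2 lower. The middle part (82 miRNAs) had a median of 0.03 with 9 called higher and 3 lower. The part with the lowest GC content (82 miRNAs, 22.7% to 45.5%) had a median of -0.02 with 4 called higher and 12 lower. For comparison, 8.42% of all 285 tested miRNAs were called higher and 6.32% lower. The role of base composition in the miR-210-3p difference was not tested.

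The profile over the 8 arrays nearest to that of miR-210-3p belonged to miR-193b-3p. Nearness was the root mean square difference of log2 signals, each miRNA centred on its own mean, over 256 miRNAs; it ran from 0.304 to 1.12 with a median of 0.52. MiR-193b-3p was at 6.80, 6.71, 6.84 and 6.92 in Akita kidneys and 5.89, 6.18, 6.17 and 6.09 in control kidneys, a log2 fold change of 0.74 (limma adjusted p = 0.00073). Its Akita arrays lay closer together than those of miR-210-3p, and Akita 4 was its highest rather than its lowest. The next were miR-149-5p at a distance of 0.349 (log2 fold change 0.46), miR-8101 at 0.371 (0.34), miR-3081-5p at 0.371 (0.38) and miR-34b-5p, a p53-induced miRNA, at 0.376 (0.35). All but miR-3081-5p (adjusted p = 0.15) were called. Nearness includes the difference between groups and so favours miRNAs higher in Akita kidneys, and these calls are therefore no separate result. Of all tested miRNAs 8.42% were called higher. A profile equal on all arrays would lie at a distance of 0.511 from miR-210-3p. Without scaling and with spike-ins the calls were lost for miR-149-5p (0.19 and 0.22), miR-8101 (0.07 and 0.10) and miR-34b-5p (0.07 and 0.11), while miR-193b-3p was called in all 28 alternatives. Of the 28 alternatives, 24 called miR-149-5p, 22 called miR-34b-5p and 10 called miR-8101. The miR-8101 call (adjusted p = 0.039) was lost in 7 of the 8 fits that left out an array, being kept only without Akita 3 (0.40) and ranging from 0.25 to 0.37 in the others, and the miR-34b-5p call was lost without control 3 (0.31).

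**Figure D5:**
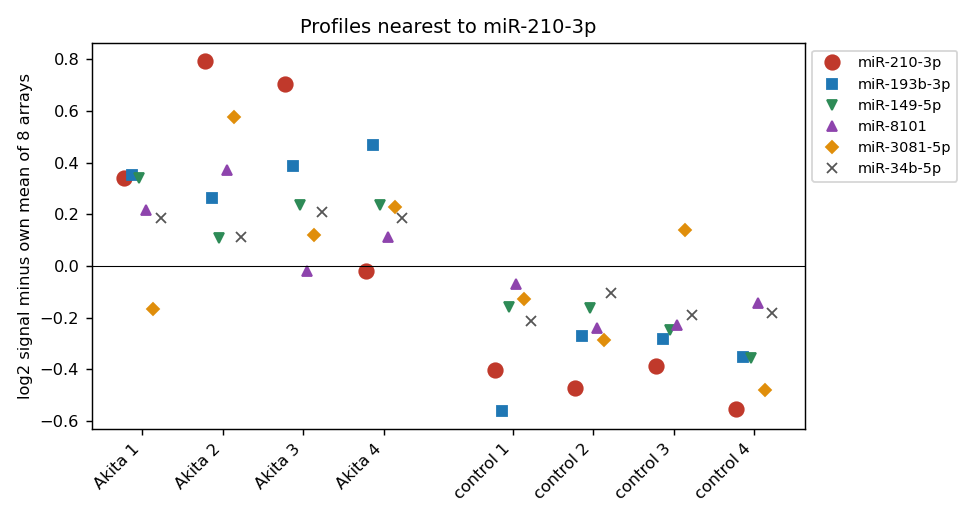
Log2 signal of miR-210-3p and its 5 nearest miRNAs on each array, minus each miRNA's own mean over the 8 arrays, Akita left of control. MiR-210-3p has the highest points on Akita 2 and 3 but stands near its own mean on Akita 4, where the other 5 stand above theirs.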

How the data were processed

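Per the file headers, the deposited scanner files hold spot intensities extracted with Agilent Feature Extraction 12.0.3.1, with background subtracted and no scaling between arrays. Per the labels' protocols, 100 ng of total kidney RNA was labelled with Cy3 for each of the 8 arrays, 4 per group. The authors' deposited value table holds a linear ratio per miRNA, relative to that miRNA's median over the arrays; how its factors per array were set is not stated in the sources used here. Its column medians were 1.03, 1.11, 1.13 and 1.22 for Akita 1 to 4 and 0.95, 0.95, 0.97 and 0.70 for control 1 to 4.

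Control spots and outlier spots (2.03% to 3.02% per array) were left out, spots of a probe averaged, and each array scaled by the 75th percentile of 451 probes that passed background on all arrays. A probe was above background where at least 0.5 of its spots were flagged so. Probe signals were summed per miRNA (no more than 4 probes each), floored at 23.65 units and put on the log2 scale. The 285 miRNAs that passed background in 4 of 4 arrays of either group were fitted with limma 3.58.1 in R 4.3.3, without covariates, with Benjamini-Hochberg adjustment over all 285, two-sided, at 0.05. The fit was also run on simulated data with equal spread in both groups, which does not cover the unequal spread seen for miR-210-3p. The precursor was folded with ViennaRNA 2.7.2.

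The members and lists were chosen with earlier results of these data known. Named were the 2 strands, called members and up to 3 bright uncalled members of each list, the 5 nearest profiles and the 2 brightest kidney markers. The alternatives were other scalings, background corrections, probe summaries, floors and filters, the authors' table, other limma settings, a replicate block and leaving out each array. No label says that same-numbered samples are pairs, so they were not treated as such. Over the 285 miRNAs their deviations from the group means correlated with mixed sign (r of 0.10, -0.30, 0.34 and -0.35 for numbers 1 to 4). Arrays of the same number lay in the same column of the slide, so the replicate block is also a block of columns.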

Additional observations from a re-analysis of the deposited data

Results flagged for a closer look

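In 4 of 36 groups of 4 arrays, 1 array stood apart from the other 3 by more than Dixon's 95% critical value, and chance gives about 1 in 20 groups. The probe A_54_P1443 of miR-210-3p was low on control 4 (gap over range 0.833), with a log2 signal of 5.23 against 5.33 to 5.35 on the other control arrays. MiR-155-5p was low on Akita 4 (gap over range 0.903), at 5.46 against 5.52 on the other Akita arrays, and on control 4 (0.900), at 6.00 against 6.15 to 6.17. MiR-181c-5p was high on Akita 4 (gap over range 0.946), at 5.54 against 5.29 to 5.31. The summed miR-210-3p signal did not stand apart in either group: the gap of Akita 4, the lowest Akita array, was 0.44 of the Akita range, and that of control 4 was 0.49 of the control range.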

How the results depend on the processing

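MiR-210-3p stayed higher in Akita kidneys in all 28 alternatives and was called in 26. It was not called with a floor 4 times higher (0.37), which lies above the scaled sums of all control arrays and Akita 4, or with no filter on dim miRNAs (0.91), where 1881 tests were adjusted for. Leaving out each array gave 0.78 to 1.01. Both single probes were called in all 14 alternatives run on them. MiR-210-5p was above background on 0 arrays also where every spot or any spot had to pass. With the replicate number as a block, miR-210-3p kept 0.91 (adjusted p = 0.0028), while all calls dropped to 25.

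The count of all calls, 42 as reported (24 higher, 18 lower), was 109 without scaling (5 higher, 104 lower), 114 with spike-ins (7 and 107), 14 with the percentile over all probes (10 and 4), 70 with cyclic loess (29 and 41), 89 with normexp (81 and 8), 21 with total gene signal (9 and 12), 9 with the higher floor and 6 with no filter. It was 18 to 37 with an array left out, being 20 without Akita 1, 25 without Akita 2, 21 without Akita 3, 21 without control 2 and 18 without control 3. The median log2 fold change was -0.21 without scaling, -0.18 with spike-ins, 0.16 with the percentile over all probes and 0.13 with normexp, against 0.06 as reported.

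Calls on the hypoxia list, 3 as reported, were 12 without scaling, 12 with spike-ins, 0 with the percentile over all probes, 6 with quantile normalization (2 higher), 7 with cyclic loess (2 higher), 0 with the higher floor, 1 with no filter, 5 where every spot had to pass (1 higher) and 2 to 3 with an array left out. Calls on the Hif1a list, 1 as reported, were 4 without scaling, 4 with spike-ins, 0 with the percentile over all probes, 4 with quantile normalization (1 higher), 5 with cyclic loess (1 higher), 0 with normexp, 2 with the authors' table, 0 with the higher floor, 2 with outlier spots kept, 4 where every spot had to pass and 1 to 4 with an array left out.

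Directions turned without scaling for miR-21a-5p (-0.039), miR-22-3p (-0.14) and miR-429-3p (-0.12), and with spike-ins for the same 3 (-0.0085, -0.11 and -0.087). They turned with the percentile over all probes for miR-26a-5p (0.033) and miR-23b-3p (0.092), and with normexp for miR-181b-5p (0.0086) and miR-181c-5p (0.014). MiR-23b-3p, at -0.00029 as reported, was 4.7e-05 with the brightest probe, 0.0060 where every spot had to pass and -0.10 to 0.043 with an array left out. The cause of these changes was not tested. With 4 arrays per group and a dim signal, differences smaller than the intervals given could not be seen, and no statement on miR-210-5p beyond its lack of signal over background can be made.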
